A study of Macaca mulatta with 27 samples.

Results

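Arrays 106c, 206c, 306c and 906c carry RNA of 4 rhesus macaque embryonic stem cell (ESC) lines and had the highest median signal of the 27 arrays of the series. They were chosen by that median, and each was set against the other arrays of its own line, its mates: 106a and 106d, 206a, 306a and 306b, and 906a and 906d. So 4 of 27 arrays were compared with 7 mates, and the differences were taken within each line. The lowest median inside the choice was 137.4 on 306c and the highest outside it was 131.0 on 3806b, followed by 128.6 on 3106c. The question was which genes moved the same way on all 4 arrays, among them genes of stress, of differentiation and of the dim background.

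The study derived 10 pedigreed ESC lines and measured expression on Affymetrix rhesus arrays. Lines 106 (male), 206 (female) and 306 (male) are full siblings of sire M106 and dam F244, and line 906 (male) has sire M36 and dam F183. Lines 2706 and 3106 (male) and 3006 (female) share sire M106 and dam F88, and line 3806 (female) has sire M106 and dam F32. These 4 lines, each with an array c and 2 mates, served as a second set. Their c arrays were not chosen, although their medians had been ranked in the choice. Lines 2406 (female, M106 and F77) and 2906 (female, M106 and F88) have no array c. No line carries a stated genetic change. All were cultured by 1 method, on mitomycin-treated mouse embryonic fibroblasts in serum replacement medium with bFGF, activin A and LIF, and colonies judged good by their shape were scraped for RNA. What the letters of the arrays stand for is not stated, nor whether a line's arrays represent different cultures, so the spread between them may be technical. The small number of arrays limits the precision throughout.

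Primate ESCs hold their undifferentiated state through POU5F1, SOX2 and NANOG, under FGF and activin signals. When they differentiate toward mesenchyme they switch on transcription factors such as TWIST1 and the ZEB genes, together with vimentin and fibrillar collagens. Fibroblasts, including the feeder layer beneath the colonies, express the same collagens and S100 proteins at a high level.

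The 4 arrays differed from their mates across the dim probe sets of the array. The median signal was 159.7 on 106c against 112.0 and 106.3 on its mates, 148.9 on 206c against 105.4, 137.4 on 306c against 102.0 and 108.4, and 137.5 on 906c against 111.8 and 117.7. All array values had been scaled by the depositors to the same trimmed mean of 500, so the higher medians came with a narrower distribution: the distance from the 10th to the 90th percentile was 5.58 to 5.79 log2 units on the 4 arrays and 5.95 to 6.08 on the mates. Probe sets called absent on all 27 arrays had a median signal of 35.4 to 45.8 on the 4 arrays and 25.1 to 29.5 on the mates. Fewer probe sets were called present, 38.2% on 106c against 45.1% and 46.9%, and 42.0% on 906c against 42.4% and 42.7%. Array 106c was the farthest from its mates on each of these measures, and 906c the nearest.

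**Figure D1:**
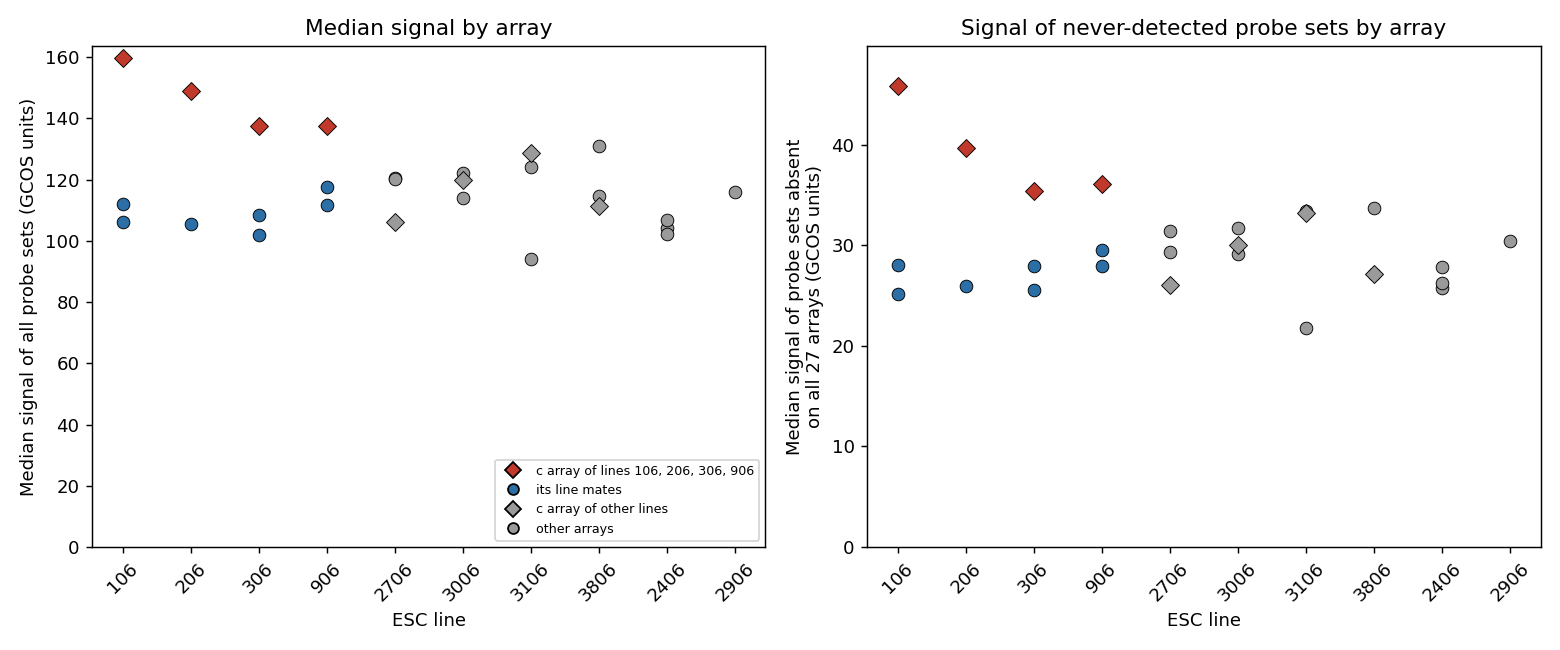
Median signal of all probe sets (left) and of probe sets called absent on all 27 arrays (right) for each array, by ESC line, with array c as diamonds. The 4 red arrays have medians of 137.4 to 159.7 on the left and 35.4 to 45.8 on the right, above their blue mates and the grey arrays of the other lines.

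The 3′ to 5′ signal ratios, signs of RNA quality, were above those of the mates on all 4 arrays for ACTB and on 3 of 4 for GAPDH. The ratio of ACTB, which rises as RNA is shortened, was 20.5 on 106c against 2.50 and 2.89, 11.5 on 206c against 3.60, 6.82 on 306c against 4.57 and 6.16, and 11.0 on 906c against 10.3 and 5.97. The GAPDH ratio was 4.61 on 106c against 1.62 and 1.96, 2.68 on 206c against 2.38, and 2.57 on 306c against 2.05 and 1.73, but 2.25 on 906c lay between its mates at 2.31 and 1.92. Arrays with ordinary medians had higher ratios still, with 34.1 for ACTB and 13.3 for GAPDH on 2906d and ACTB ratios of 25.7 on 2406e, 18.4 on 2406d and 17.3 on 3006a. Spiked hybridisation controls were brighter than in the mates on 106c, 206c and 306c, by 1.37, 0.54 and 0.33 log2 units, and dimmer on 906c, by -0.49. The part of these measures in the gene differences was not tested.

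Levels are given as log2(signal + 16), a scale on which dim genes appear to change less than they do. Probe sets above the median of the array on 3 or more arrays were examined. They numbered 32856 and covered 11299 genes, each gene being read from its brightest probe set. The difference of array c from its mates varied with the level of the probe set. For probe sets with a mean level of 5 to 6 the median difference was 0.57 in line 106, 0.41 in 206, 0.29 in 306 and 0.26 in 906. Between 11 and 12 it was -0.19, -0.16, -0.11 and -0.08. Over all examined probe sets the median difference was 0.13 log2 units (0.17, 0.17, 0.11 and 0.05 by line), and over the 15140 probe sets present on every array it was -0.02. The counts of higher and lower genes are to be read against this shift.

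**Figure D2:**
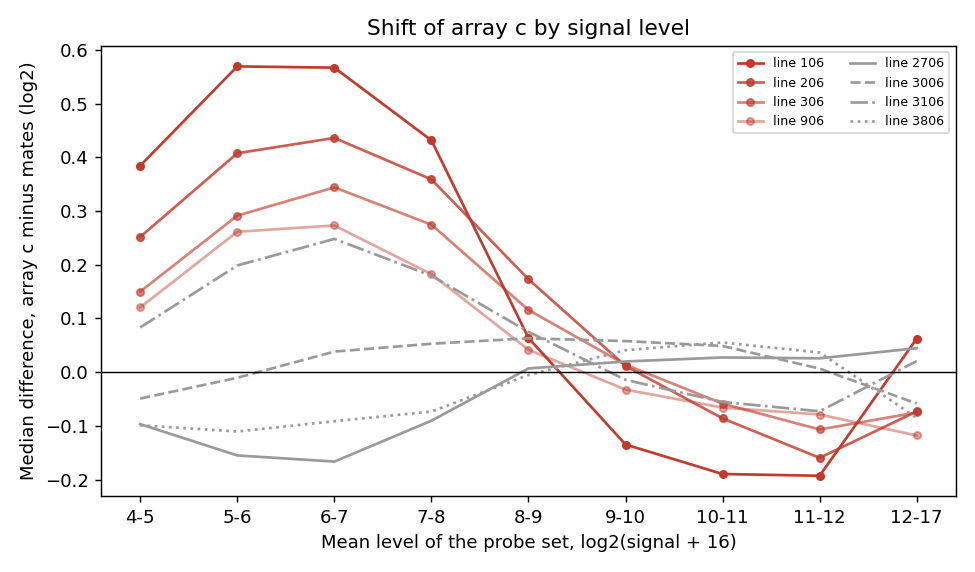
Median difference of array c from its mates (vertical axis, log2) against the mean level of the probe set (horizontal axis, log2(signal + 16)), 1 line per ESC line. The red lines 106, 206, 306 and 906 lie between 0.26 and 0.57 in the class from 5 to 6 and below 0 from 10 to 12, and of the grey lines only 3106 takes a similar course.

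A gene was counted as higher or lower when array c differed from the mean of its mates by at least 0.5 log2 units in the same direction in all 4 lines. Since the arrays were chosen from the same signals, these counts are a description and carry no test. By this rule 386 genes were higher, 3.42% of those examined, and 62 were lower, 0.549%. Among probe sets, named or not, 1466 (4.46%) were higher and 169 (0.514%) lower. All 4 c arrays lay above all 7 mates for 827 genes (7.32%) and below all 7 for 379 (3.35%). The split depended on the scaling: 86.2% of the called genes were higher as deposited, 59.6% after quantile normalization (187 higher, 127 lower) and 13.9% with each array centred on its median (116 higher, 720 lower). Under all 3 scalings 116 genes stayed higher and 54 lower. Of the 386 higher genes, 144 (37.3%) were called present on all 4 c arrays and 157 (40.7%) on none of them, against 65.8% and 19.1% of all genes examined. The median level of the 386 in the mates was 7.08. The largest of the 4 differences lay in line 106 for 161 of the 386, in 206 for 128, in 306 for 58 and in 906 for 39.

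The gene with the largest difference was S100A6, a calcium-binding protein abundant in fibroblasts and other mesenchymal cells. Its level was 15.19 on 106c, 14.96 on 206c, 14.46 on 306c and 14.45 on 906c. In the mates it was 8.83 and 8.38, 9.15, 9.34 and 10.15, and 9.94 and 10.23, in the same order of lines. The groups did not overlap, and the 16 arrays of the other lines ran from 8.24 to 10.68, so the 4 arrays stood alone among 27. The mean difference was 5.37 ± 1.02 (SD, n = 4 lines), a 41.3-fold higher signal with single lines between 20.6 and 95.9. A second probe set of S100A6 was higher by 1.89 and another, dim one by 0.24. S100A4, a related protein known as a fibroblast marker, stood at 10.49, 10.29, 10.11 and 9.96 on the 4 arrays and at 6.72 to 8.26 in the mates. Its difference was 2.66 ± 0.78 (SD, n = 4 lines), and S100A1 was higher by 0.89 ± 0.26. Of the 8 S100A genes examined, a list drawn up after the values were seen, these 3 met the rule that 3.42% of all genes met. S100A1 missed it after quantile normalization, with a smallest difference of 0.48, while as deposited S100A10 and S100A11 differed by 0.27 and 0.19.

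INHBA encodes the subunit that forms activin A, the factor that was also added to the medium. It was at 10.06, 10.46, 9.50 and 9.52 on 106c, 206c, 306c and 906c and at 4.97 to 6.44 in the mates. No other array of the series reached 7, the highest being 6.94. The difference of 4.19 ± 0.83 (SD, n = 4 lines) corresponds to 18.2-fold, and a second INHBA probe set was higher by 2.13. Among 15 examined genes of activin and TGF-beta signalling, a list drawn up after the values were seen, 3 were higher, beside 3.42% of all genes. Besides INHBA these were INHBC (0.68) and the TGF-beta-induced matrix protein TGFBI (1.06). INHBC and TGFBI missed the rule after quantile normalization, with smallest differences of 0.33 and 0.16, which left INHBA alone of the 15. As deposited, the antagonist FST (0.24), the receptors TGFBR1 (0.04) and TGFBR2 (0.07) and the signal transducers SMAD2 (-0.15) and SMAD4 (-0.40) did not meet the rule. LIF, another cytokine of the medium, was called present on all 4 c arrays, at 8.86, 8.49, 8.02 and 8.13 against 6.68 to 7.39 in the mates.

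Among the 12 named higher genes, NFIX, MEIS1, ZEB2 and TSHZ1 encode transcription factors known from mesenchyme or from body patterning. NFIX, a nuclear factor I protein, was at 10.96, 11.09, 10.44 and 9.48 on the 4 arrays and at 6.35 to 7.57 in the mates, a difference of 3.47 ± 1.02 (SD, n = 4 lines). MEIS1, a homeobox partner of HOX proteins, was called present on all 4 c arrays and on no other array of the series, at 8.59, 8.11, 8.56 and 7.19 against 4.39 to 5.83. ZEB2, a repressor of E-cadherin, was at 9.19, 9.18, 9.58 and 8.74 against 5.26 to 6.84. For these 3 genes the c arrays lay clear of the mates and of the other 16 arrays. TSHZ1, a zinc finger factor of trunk patterning, differed by 2.58 ± 0.34 and was present on 4 of 4 c arrays and 0 of 7 mates.

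A list of 20 such factors on the array, drawn up after the values were seen, had 17 examined members, of which 11 were higher and 0 lower, beside 3.42% of all genes higher. After quantile normalization 9 were higher, ZEB1 and NR2F1 having smallest differences of 0.38 and 0.28. The members were picked with their values known, so the counts describe those genes only. The list had a median difference of 0.88 against 0.05 over all genes (0.84 against -0.02 after quantile normalization). Besides those above they were MEIS2 (2.52), NR2F2 (2.27), NFIB (1.16), TWIST1 (1.12), PRRX2 (0.88), NR2F1 (0.82) and ZEB1 (0.79). MEIS3, NFIC, SNAI1, TSHZ3, PBX2 and PBX3 did not meet the rule, with differences from -0.16 to 0.65. TWIST1 overlapped between the groups because the lines differed: it was at 9.66 on 906c and at 8.15 and 8.47 in its mates, but at 10.20 and 9.99 in the mates of 106c, which had 10.80.

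HOX genes, which set position along the body axis and are silent in undifferentiated ESCs, were higher at 4 of 13 examined members and lower at 0, beside 3.42% of all genes higher. This list too was drawn up after the values were seen, and 4 were also higher after quantile normalization. The 13 were those of 26 HOX genes on the array that passed the filter, which a gene could pass through the 4 c arrays alone. Dim probe sets that were examined met the rule more often: 25.6% of those with a mean level of 5 to 6 in the mates were higher. Of 10653 probe sets in that class 676 passed the filter, which they too could pass through the 4 c arrays alone. The 25.6% is therefore not an unbiased share of dim probe sets. HOXC10 was at 7.98, 7.72, 7.91 and 7.48 on the 4 arrays and at 4.77 to 5.97 in the mates, HOXB8 differed by 2.29 ± 0.90 and HOXB7 by 1.97 ± 0.86 (SD, n = 4 lines). HOXC10 and HOXB8 were called present on 0 of 27 arrays. HOXA11 was called present on all 4 c arrays and 4 of 7 mates and differed by 1.45 ± 0.34. The median of the 13 was 0.59, and 0.25 after quantile normalization.

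**Figure D3:**
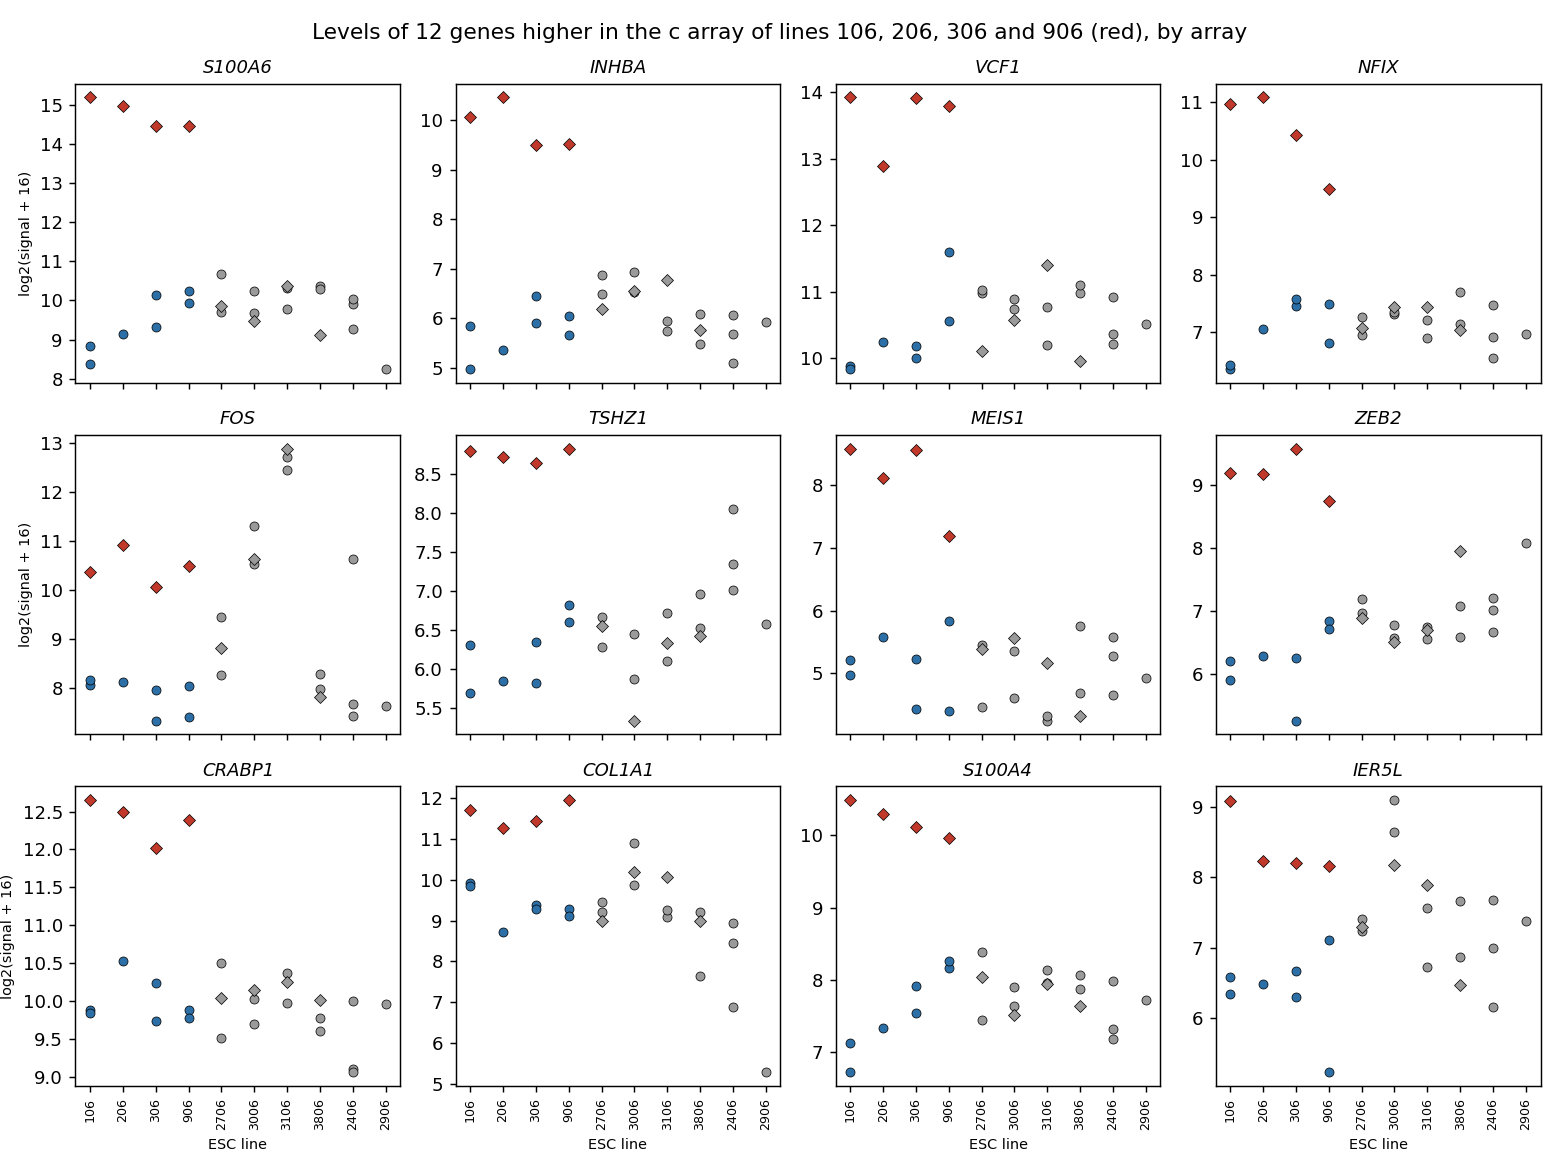
Level of 12 genes on each of the 27 arrays, by ESC line (vertical axes log2(signal + 16), each with its own range), with array c as diamonds, the 4 c arrays in red and their mates in blue. S100A6 lies at 14.45 to 15.19 on the red arrays and at 10.68 or below elsewhere, whereas some grey arrays reach the red level for FOS and IER5L.

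Matrix and fibroblast genes were higher in part. COL1A1, a chain of type I collagen, was at 11.71, 11.27, 11.44 and 11.96 on the 4 arrays against 8.71 to 9.91 in the mates, a difference of 2.31 ± 0.43 (SD, n = 4 lines). The highest of the other 16 arrays had 10.89. VIM, the intermediate filament of mesenchymal cells, differed by 1.05 ± 0.45 and 2 of its other probe sets met the rule as well. The other 16 arrays ran from 12.44 to 14.20 with a median of 13.78. Arrays 306c (13.83) and 906c (13.72) lay near that median, and 106c (14.85) and 206c (14.25) above the range. Of 16 examined members of the fibroblast and matrix list 5 were higher (S100A6, S100A4, COL1A1, VIM and FAP) and 0 lower, with a median difference of 0.53. Over all genes 3.42% were higher, or 1.66% after quantile normalization. FAP, called present on 0 of 27 arrays, missed the rule after quantile normalization (smallest difference 0.05) and FN1 then met it (0.53). The list median was 0.52 after quantile normalization and -0.12 in the second set of lines. The partner chain COL1A2 differed by 0.39 (-0.27 to 1.08 by line), COL3A1 by 0.03 and COL5A2 by -0.11, and THY1, a surface marker of fibroblasts, by 0.00. Of 31 collagen genes examined, listed after the values were seen, 4 were higher and 0 lower, beside 3.42% of all genes higher. After quantile normalization 2 were higher, COL1A1 and COL2A1, beside 1.66% of all genes.

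CDH11, LGALS1, WLS and CREB3L1 were named after their values were seen. CDH11, the cadherin of mesenchymal cells, was at 12.47, 12.73, 13.08 and 11.58 against 9.53 to 10.43 in the mates. The metalloproteinase inhibitor TIMP2 was called present on 4 of 4 c arrays and 0 of 7 mates, with a difference of 2.02 ± 0.63 (SD, n = 4 lines). LGALS1, a galectin of mesenchymal cells, differed by 1.74 ± 0.48, although other lines reached 13.99, inside the range of the 4 arrays (13.18 to 14.83). WLS, which carries WNT proteins to the surface, differed by 1.66, and CREB3L1, a factor that drives collagen expression, by 1.55. FN1 (0.67) stood above its mates on all 4 arrays but missed 0.5 in line 306 with 0.42.

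The summed signal of 6 fibroblast markers (COL1A1, COL1A2, COL3A1, LUM, DCN and THY1) was 9541 to 10972 on the 4 arrays, 4655 to 9096 in the mates and 2833 to 5980 in the other 16 arrays. Among the 6 only COL1A1, already named for its rise, lay above all 7 mates on all 4 arrays, and the ranges of the others overlapped. The sum is therefore not independent of COL1A1. Of the 6 markers, 3 were called present on all 4 c arrays. LUM was called present on 3 c arrays and 0 mates and DCN on 2 c arrays and 1 mate. Whether this signal came from rhesus or feeder cells was not tested, and in bulk RNA a difference in the number of cells of a type and in RNA per cell cannot be told apart.

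The state of the ESCs themselves was described by pluripotency genes. POU5F1, SOX2, DNMT3B and DPPA4 were high and called present on all 27 arrays. NANOG was lower, at 9.18 to 9.71 on the 4 arrays and 8.24 to 9.74 in the mates, and was called present on 26 of 27. POU5F1 was at 15.07, 14.56, 14.25 and 14.28 on the 4 arrays and 13.98 to 14.62 in the mates. SOX2 was at 12.83 on 106c and at 13.93, 13.96 and 13.95 on the other 3, against 13.73 to 14.33 in the mates. NANOG (0.47 ± 0.48), DNMT3B (-0.03 ± 0.36) and DPPA4 (0.28 ± 0.20, SD, n = 4 lines) overlapped between the groups. The summed signal of 6 pluripotent markers was 57318 to 61591 on the 4 arrays and 49412 to 71932 in the mates, so these ranges overlapped too.

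Of the 14 pluripotency genes examined 0 were higher and 1, FGF4, was lower, and the median was -0.22 against 0.05 over all genes. Over all genes 3.42% were higher and 0.549% lower. Of the 14, 9 were called present on all 4 c arrays and 2 on none of them. FGF4, a growth factor secreted by pluripotent cells, was at 6.80, 6.31, 7.53 and 8.07 on the 4 arrays. The mates had 7.60 and 7.91, 7.08, 8.07 and 8.42, and 8.68 and 9.18. Each array c lay below its own mates by 0.71 to 0.95, and the groups overlapped only because the level differed between lines. The arrays of the other lines had a median of 7.27, from 5.87 to 8.77. That median lay near the mean of the 4 c arrays (7.18) and below the mean of the mates (8.13). Set against the other lines, the mates were therefore the high samples for FGF4. FOXD3 (-0.63), UTF1 (-0.63), NODAL (-0.47), ZFP42 (-0.43) and PRDM14 (-0.49) had negative means and missed the rule in at least 1 line.

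CRYM, a thyroid hormone-binding crystallin, was at 9.21, 9.14, 9.58 and 9.34 against 9.98 to 10.75 in the mates, a difference of -1.14 ± 0.28 (SD, n = 4 lines). The other 16 arrays had a median of 9.54, near the 4 c arrays, so here the mates were the high samples. TRMT6, a subunit of a transfer RNA methyltransferase, was at 8.86, 9.43, 9.77 and 9.25 against 10.07 to 11.41. Its mate 106a alone was at 11.41, and a second TRMT6 probe set differed by -0.59. MIDN (midnolin, which carries nuclear proteins to the proteasome) differed by -0.80 ± 0.13, MRPL38 of the mitochondrial ribosome by -0.79 ± 0.15 and MED13L of the Mediator complex by -0.83 ± 0.23. A second probe set of MIDN differed by 0.39 and one of MRPL38 by 0.01.

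EXOSC4 of the RNA exosome differed by -1.07 ± 0.49 and ESCO2, a cohesin acetyltransferase, by -0.98 ± 0.33 (SD, n = 4 lines). RASSF6, a RAS-association domain protein, differed by -1.21 ± 0.66, and line 106 had the largest difference (-2.17). The same held for C1H1orf74 (-1.87 in line 106, mean -1.22) and C8H8orf82 (-1.33, mean -0.82). CFAP90, a cilia-associated protein, differed by -0.76 ± 0.14 (SD, n = 4 lines) at a level of 5.61 to 6.22 on the 4 arrays. Of the 31 lower genes present on all 7 mates, line 106 held the largest difference for 21. BCL11A, chosen after its values were seen, shows how far 106c could stand apart: it was at 6.25 there and at 8.91, 8.97 and 8.82 on the other 3.

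**Figure D4:**
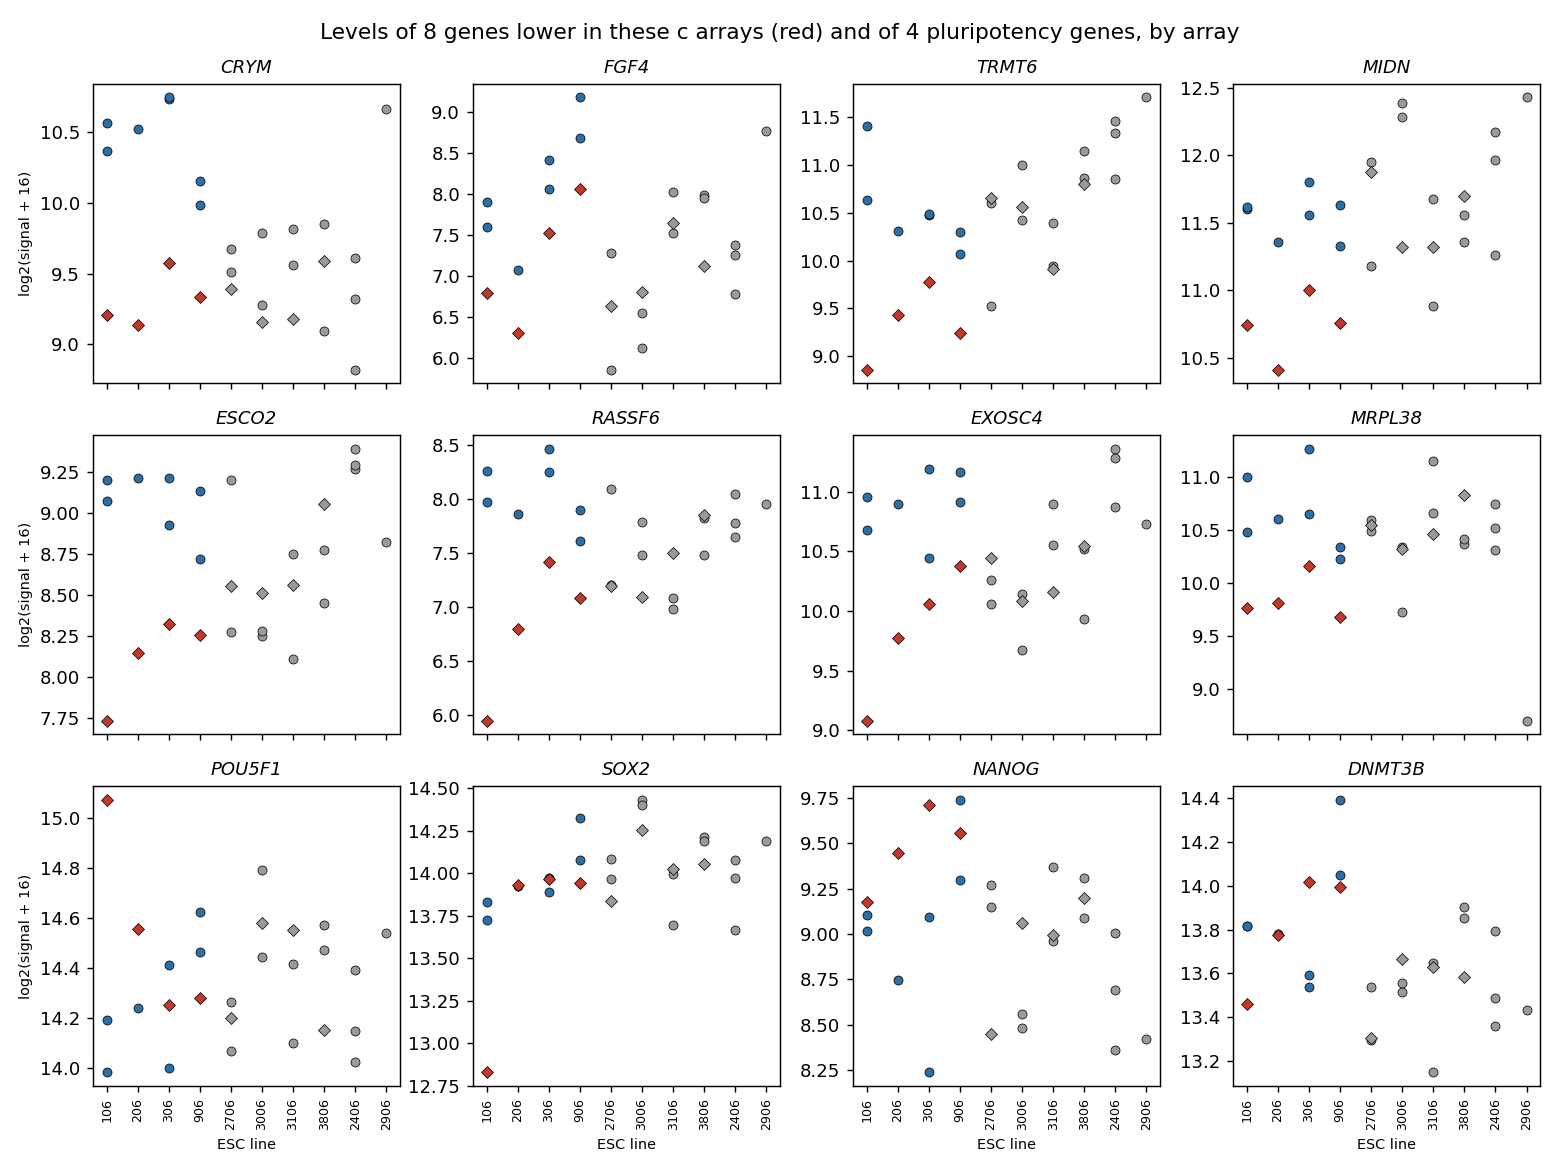
Level of 8 genes that were lower on the 4 c arrays (red diamonds) than in their mates (blue) and of 4 pluripotency genes, on each of the 27 arrays by ESC line (vertical axes log2(signal + 16), each with its own range). CRYM on the red arrays lies at 9.14 to 9.58, among the grey arrays, while red and blue points of POU5F1, SOX2, NANOG and DNMT3B overlap.

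Detection calls gave a shorter list. Only 9 genes were called present on 4 of 4 c arrays and 0 of 7 mates (0.0797%): MEIS1, TSHZ1, TIMP2, CRYAB, NRN1, C1QTNF2, GHRH, PSD and LOC693756, the last named after its values were seen. CRYAB, a small heat shock protein, was at 10.23, 9.77, 9.17 and 9.35 against 7.87 to 8.25 in the mates, and it was called present on 0 of the other 16 arrays. NRN1, a neurite growth factor, differed by 1.42 ± 0.48, C1QTNF2 by 1.33 ± 0.39 and the hormone gene GHRH by 1.26 ± 0.50 (SD, n = 4 lines). PSD differed by 1.11 ± 0.78 but by only 0.19 in line 906.

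Calls went the other way for 39 genes (0.345%), present on 0 of 4 c arrays and 7 of 7 mates. GDF11, a TGF-beta family ligand, led them with -1.35 ± 0.91, though it differed by only -0.03 in line 206. KRI1, known from yeast for ribosome assembly, was at 8.65, 8.51, 8.58 and 8.32 against 9.07 to 9.66, but differed by -0.44 in line 106. Its other probe set differed by -0.13 and was called present on 3 of 4 c arrays and 7 of 7 mates. CCDC32 differed by -1.06 ± 0.64 and met the rule. The other 5 named genes also had at least 1 line with a difference under 0.5 in size: DBNDD1 (mean -0.66), MATCAP1 (-0.55), ZNF583 (-0.52), KRT222 (-0.52) and KICS2 (-0.45). For MATCAP1 the mean came from 906c alone, at 7.15 against 9.03, 9.25 and 9.11 on the other 3 c arrays. So losing a present call did not always go with a lower signal.

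Stress genes were examined as 7 lists. Immediate early genes, which respond within minutes to growth factors and to handling, had 2 of 10 members higher, beside 3.42% of all genes. FOS was at 10.37, 10.91, 10.06 and 10.49 on the 4 arrays and at 7.32 to 8.15 in the mates, a difference of 2.57 ± 0.26 (SD, n = 4 lines). It was higher still in other lines, up to 12.89. KLF6 differed by 0.75 ± 0.17, and only 1 of its 5 other probe sets met the rule. JUNB (0.02), IER2 (0.02), EGR2 (-0.32) and MYC (-0.05) did not, and ATF3 differed by 0.94 with -0.08 in its lowest line. IER5L, a relative of an immediate early gene and no list member, differed by 2.01 ± 0.42.

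Among 16 p53 targets 2 were higher, PHLDA3 (1.56 ± 0.64) and the antiproliferative gene BTG2 (1.50 ± 0.57, SD, n = 4 lines), and the list median was 0.57 (0.45 after quantile normalization). Over all genes 3.42% were higher and the median was 0.05 (-0.02 after quantile normalization). BTG2 missed the rule after quantile normalization, with a smallest difference of 0.41, and PHLDA3 missed it with arrays centred on their medians. PHLDA3 was called present on 0 of 27 arrays and BTG2 on 0 of 4 c arrays. The brighter targets were uneven across lines. CDKN1A, the cell cycle inhibitor p21, was at 11.56 on 106c, 9.20 on 206c and 10.46 on 906c against 7.78 to 8.49 in the mates, but at 8.30 on 306c. GDF15, a stress cytokine, ran 12.23, 9.89, 8.46 and 11.18 over 106c, 206c, 306c and 906c, against 8.01 to 9.06. DDIT3, a factor of the unfolded protein response, showed 12.14, 10.33, 9.19 and 10.67, against 7.87 to 9.60. None of these 3 met the rule, since 306c differed from its own mates by 0.22 for CDKN1A, -0.32 for GDF15 and -0.13 for DDIT3.

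The other stress lists had 0 members higher or lower: 10 heat shock and chaperone genes (median -0.12), 11 of the unfolded protein and integrated stress response (0.25), 13 of hypoxia and glycolysis (0.05) and 10 of metallothioneins and antioxidant enzymes (-0.04). HSPH1 (-0.94) and DNAJB1 (-0.61), both chaperones of the heat shock response, had negative means. The interferon list had 1 of 10 higher, OAS2 (1.10 ± 0.24), which was called present on 0 of 27 arrays. Cell cycle genes had 0 of 14 called and a median of -0.37, with PCNA at -0.77, MCM5 at -0.66 and TOP2A at 0.03. Ribosomal protein genes (median 0.33, or 0.02 after quantile normalization), the respiratory chain (0.02), splicing factors (-0.13) and histones (-0.22) also had 0 called members. Over all genes 3.42% were higher and 0.549% lower, and at those shares lists as short as these can hold 0 or 1 called members.

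Germ layer lists gave single genes. TFAP2A, a trophoblast and surface ectoderm factor, differed by 1.35 ± 0.40 (SD, n = 4 lines), yet its mate 906d was at 9.33, near 906c at 9.40. APOA1, an apolipoprotein of visceral endoderm, was lower by -1.44 ± 0.66 and was called present on 0 of 11 arrays of these lines. The 13 endoderm genes had a median of 0.64 with 0 higher, since lines disagreed: GATA6 differed by -0.22 to 2.22 and SOX17 by -0.50 to 1.95. Of the 8 mesoderm genes TWIST1 was higher, and of the 6 neural ectoderm genes 0 were. Of the 4 trophoblast markers CDX2 and KRT7 were called present on 0 of 27 arrays, ELF5 on 1 and GATA3 on 26. GATA3 was present on 3 of 4 c arrays and 7 of 7 mates and differed by 1.03, but by 0.23 in its lowest line. The keratins KRT8 (-0.72), KRT18 (0.12) and KRT19 (-0.47), also on the trophoblast list, were present on all 11 of these arrays and missed the rule. Of the blood markers PTPRC and CD14 were called present on 0 of 27 arrays and HBB on 1. Claudins (0 of 12 called, median -0.11) and genes of epithelial junctions and splicing (0 of 9, median -0.20) were listed after the values were seen. With 3.42% of all genes higher and 0.549% lower, lists as short as these can hold 0 or 1 called members.

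**Figure D5:**
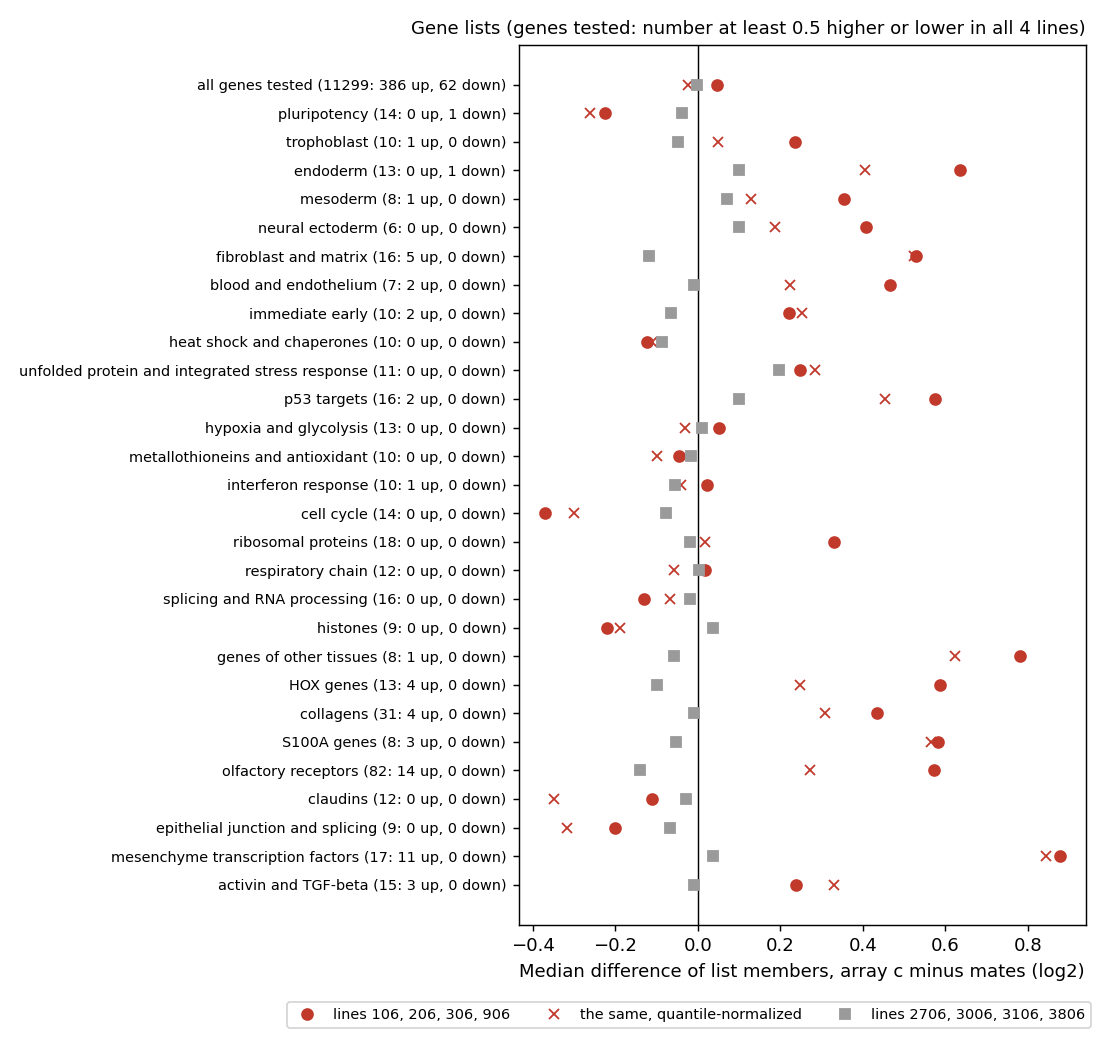
Median difference of array c from its mates over the examined members of each gene list (horizontal axis, log2), as deposited (red circles) and quantile-normalized (red crosses) for lines 106, 206, 306 and 906, and as deposited for lines 2706, 3006, 3106 and 3806 (grey squares). The red circle of the mesenchyme transcription factors, a list drawn up after the values were seen, is at 0.88, that of cell cycle genes is at -0.37, and the grey squares run from -0.14 to 0.20.

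Genes that these cells are not known to use were higher as well. Olfactory receptor genes, listed after the values were seen, numbered 151 on the array, of which 82 were examined. Of these 82, 45 were called present on none of the 4 c arrays. As deposited 14 were higher and 0 lower, with a median of 0.57, beside 3.42% of all genes higher. After quantile normalization 3 were higher, beside 1.66% of all genes. HBB, a globin chain, was at 9.01, 8.76, 9.14 and 8.83 against 7.03 to 7.84, and GATA1, an erythroid factor, differed by 1.22 ± 0.41 (SD, n = 4 lines). Both were called present on 0 of these 11 arrays. GATA1 missed the rule after quantile normalization (smallest difference 0.21). MYH6, a heart myosin and the 1 higher gene of 8 examined from other tissues, differed by 1.02 ± 0.37 and missed the rule after quantile normalization (0.27). Unlike HBB and GATA1 it was called present on 4 of 4 c arrays, 5 of 7 mates and 10 of the other 16 arrays.

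S100A6, INHBA, NFIX, ZEB2, MEIS1 and COL1A1, named for their large rises on these signals, had differences of 5.17, 4.12, 3.42, 2.82, 2.70 and 2.37 after quantile normalization and of 4.99, 3.81, 3.10, 2.58, 2.58 and 1.93 with arrays centred on their medians. Of the 116 genes higher under all 3 scalings, 53 (45.7%) were called present on all 4 c arrays, against 65.8% (7434) of all genes examined. Of the 53, 35 lay above all 23 other arrays. The 53 had been selected as higher on the c arrays, so the 35 describe those genes only.

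Some leading genes rest on a single probe set. VCF1, a cofactor of the segregase VCP, was at 13.93, 12.89, 13.92 and 13.79 on the 4 arrays against 9.83 to 11.60 in the mates, but its 2 other probe sets differed by -0.89 and -0.51. CRABP1, a retinoic acid-binding protein, was at 12.65, 12.50, 12.02 and 12.38 against 9.73 to 10.53 and has no second probe set. NFIX, ZEB2, FOS, S100A4 and IER5L have none either. The second probe sets of MEIS1, TSHZ1 and COL1A1 differed by 1.44, 0.96 and 0.40. Their smallest line differences were 0.41, 0.06 and -0.03, so they missed the rule. The neuronal genes STMN2 (1.49), DPYSL5 (1.46) and PRPH (1.20) were also higher and present on all 4 c arrays. These 3 and the clock genes NR1D1 (2.13) and RORA (1.78) were picked after their values were seen.

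The second set of lines tested whether array c differed from its mates in lines whose c arrays were not among those chosen. By limma with the line as a block, 0 of 32856 probe sets passed an adjusted p of 0.05 and the smallest adjusted p was 0.571, while 1060 (3.23%) had an unadjusted p under 0.05. Only 33 probe sets (0.1%) were higher by the shift rule and 13 (0.0396%) lower. Among genes these were 4 higher (0.0354%), ASPDH, C12H2orf76, LOC707790 and TMEM241, and 2 lower (0.0177%), CIITA and DNAH3, all named after their values were seen. Of these 6 only ASPDH was also higher in lines 106, 206, 306 and 906.

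The leading genes showed no such difference there. S100A6 differed by -0.42 ± 0.26 (SE), INHBA by 0.05 ± 0.22, NFIX by 0.02 ± 0.17, MEIS1 by 0.25 ± 0.32, ZEB2 by 0.20 ± 0.21 and COL1A1 by 0.23 ± 0.31. Over the 386 higher genes the median was -0.02, with 176 of the 386 positive. The lower genes had a median of -0.01, 32 of 62 being negative. FGF4 differed by -0.11 ± 0.27 and CRYM by -0.24 ± 0.18.

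Nor did the array measures differ detectably between array c and its mates in these lines. The median signal differed by -1.09 (exact permutation within lines, two-sided, p = 0.901, adjusted over 4 measures 0.901), being higher in 2 of 4 lines. All medians had been ranked in the choice, and these c arrays fell below its cut. For the median this test therefore cannot decide whether c arrays in general are high. The percentile spread is not independent of the median, since all arrays share a trimmed mean. The percent of present calls differed by 1.33 points and was higher in 3 of 4 lines (p = 0.210, adjusted 0.840, exact permutation). The GAPDH ratio differed by -0.37 (p = 0.691) and the percentile spread by 0.016 log2 units (p = 0.864), each with an adjusted p of 0.901 by the same exact permutation. With 81 arrangements the smallest p such a test can give is 0.0123. Across all examined probe sets, the differences of pairs of lines had a Pearson r of 0.33 to 0.53 among 106, 206, 306 and 906, of -0.14 to 0.10 among the second lines and of -0.24 to 0.20 between the sets. These are correlations across probe sets, which are not independent and share each array's scaling and signal distribution, so they are given as a description.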

How the data were processed

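Each of 27 samples gave 300 ng of total RNA for biotin-labelled cRNA, which was hybridised to a rhesus array from Affymetrix, per the labels' protocols. The submitters' processing notes name GCOS as the program behind the deposited intensity values, 1 per probe set and array; the version was not given in the sources used here. The trimmed mean, with 2% left out at each end, was 500 on every array, so the authors had scaled the intensities. A second deposited table holds the same signals with present, marginal and absent calls. It filled 1 blank cell, and 0 other cells differed.

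Among the 52865 probe sets, 158 are controls and were left out. In the remainder 24956 carry 1 symbol, 361 several and 27390 none, and the latter are not named. Gene identifiers placed 24616 of them in RefSeq's rhesus annotation. The members and the gene lists were chosen with earlier results of these data known, and lists of HOX, S100A, collagen, claudin, olfactory receptor, epithelial, mesenchyme and activin genes after the values were seen. The second set of lines was tested with limma 3.58.1 in R 4.3.3 on log2(signal + 16), with Benjamini-Hochberg adjustment. Array measures were tested by exact permutation within lines. These steps were tested on simulated data.

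Named genes were the 12 with the largest smallest-line rise among genes present on all 4 c arrays, the 12 with the largest such fall among genes present on all 7 mates, up to 8 gained and 8 lost in detection, up to 4 called members of each first list, and POU5F1, SOX2, NANOG, DNMT3B and DPPA4. List members given by their values, and genes said to be so in the text, were picked after their values were seen. Alternatives were quantile normalization, centring on the median, pseudocounts 1 and 64, no filter or a filter on present calls, array a as the only mate, a shift of 1, leaving out each line, and other line blocks. Counting genes that met the rule under all 3 scalings was chosen after seeing the data. No sequences are shown.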

Additional observations from a re-analysis of the deposited data

Results flagged for a closer look

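Among 128 groups of 4 to 10 arrays, 15 had 1 array standing apart from the rest by Dixon's criterion, which by chance singles out about 1 in 20 groups (5 percent). On the 4 c arrays these were VCF1 on 206c (12.89, the next being 13.79), IER5L on 106c (9.09, next 8.23), MATCAP1 on 906c (7.15, next 9.03) and SOX2 on 106c (12.83, next 13.93). In the 7 mates they were VCF1 on 906d (11.60, next 10.55), TRMT6 on 106a (11.41, next 10.63), C1H1orf74 on 306b (9.64, next 8.90), GHRH on 206a (6.91, next 7.55), TFAP2A on 906d (9.33, next 7.77) and PHLDA3 on 906d (6.43, next 7.70). All are levels on the log2(signal + 16) scale.

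In the second set of lines array 3106a had a lower median signal (94.1) and a wider 10th to 90th percentile spread (6.18 log2 units) than the other mates. The GAPDH 3′ to 5′ ratio of 6.15 and the ACTB ratio of 17.3 on 3006a, and the ACTB ratio of 8.08 on 3006c, also stood apart.

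For 3 of the 54 named genes every line of the first set moved one way and every line of the second set the other. Among 54 genes a few such reversals can arise by chance. CRYAB differed by 1.52 in the first set and -0.53 in the second, HBB by 1.40 and -0.47, and C8H8orf82 by -0.82 and 0.29. The difference between the sets was not tested.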

How the results depend on the processing

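As deposited, 1466 probe sets and 3.42% of the genes examined were higher, 169 probe sets and 0.549% of genes lower, and the median difference was 0.128. Quantile normalization gave 601 probe sets and 1.66% of genes higher, 412 and 1.12% lower, and turned the median to -0.017. Centring on the median gave 389 and 1.03% higher, 1581 and 6.37% lower, and a median of -0.248, since it removes each array's own shift. A pseudocount of 64 left 833 probe sets and 2.08% of genes higher and 110 probe sets lower. Without a filter 2339 probe sets were higher and the median was 0.200, and with a filter on present calls 946 were higher. A shift of 1 left 246 probe sets and 0.628% of genes higher and 24 and 0.0974% lower. With 1 line left out, which asks for agreement in fewer lines, probe sets higher ran from 1854 to 2858 and lower from 256 to 563. Genes higher then ran from 4.10% to 6.52%, with 6.13% without line 306 and the top value without line 906, and genes lower from 0.743% to 1.55%. Of the values of named genes under alternatives other than the filters, which cannot move a gene's own difference, 455 lay within 1 SD over lines and 31 further off. The sign turned for 0 genes that met the rule. It turned for 3 that did not: centring on the median gave POU5F1 -0.11 and DPPA4 -0.09, and DNMT3B was 0.07 without line 106 and 0.03 without line 906.

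In the second lines 0 probe sets were called under each of the settings run, among them no line block and the line as a random block. With 1 line left out the median signal difference ran from -7.95 to 3.27, turning sign without 2706 or 3806, and the spread difference from -0.018 to 0.084, turning sign without the same lines. Arrays were paired by line throughout, and not by number. Depth is not defined for arrays. Signal over background limits the 157 higher genes called present on none of the 4 c arrays.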
